A study of Mus musculus with 20 samples.

Results

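The transcripts described here are those of 8 peptide hormones made in the mouse pancreatic islet: Ins1, Ins2, Iapp, Gcg, Sst, Ppy, Pyy and Ucn3. They were chosen by name, as the rows of a table of 26211 genes whose Ensembl identifier maps to one of these symbols, and all 8 were found. Messenger RNA was sequenced from islets of P2Y14-knockout mice, which lack a receptor for UDP-sugars that P2ry14 encodes, and from islets of wild-type mice, with 10 libraries of each genotype. The labelled strain of both groups is C57BL/6 x 129S6. In both, islets were freed by enzyme digestion, picked by hand and cultured overnight, so the values describe cultured islets. The labels give no age and do not say whether libraries are separate animals, so p-values refer to the spread between these samples, part of which may be technical.

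Islets hold several endocrine cell types, each known by its main hormone. Beta cells make insulin, which lowers blood glucose, alpha cells make glucagon, which raises it, delta cells make somatostatin, which restrains both, and PP cells make pancreatic polypeptide. Mice carry a pair of insulin genes, Ins1 and Ins2, and the other hormones of the set each come from a single gene.

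Values are normalized read counts, that is the reads of a gene scaled by each library's size factor. Reads summed over genes ranged from 34520628 to 199847246 per library, and the least covered member in any library, Ucn3, still had 1528 reads. Acinar cells are the enzyme-making cells that surround islets, and 30 of their genes took 8.16 to 32.99% of reads in knockout libraries (median 24.2%) and 6.38 to 32.6% in wild-type libraries (median 22.4%). P2ry14 lay between 0 and 113.5 in knockout libraries and between 79.7 and 262.1 in wild-type libraries. The values of 113.5 in the library labelled knockout replicate 2 and 86.0 in the library labelled knockout replicate 10 were in the wild-type range. The library labelled knockout replicate 6 stood apart in another way. Its Myo7a, at 79.7, was far below the other knockout libraries (580.8 to 1332) and nearer the wild-type range (0 to 62.7). Its Thbs3, at 1234, lay within the wild-type range (1140 to 1745), as did its Trim12a, at 0 (wild-type 0 to 30.2). Knockout replicates 2 and 10 lay outside these wild-type ranges. They had Myo7a at 830.6 and 940.6, Thbs3 at 362.0 and 336.6 and Trim12a at 93.2 and 246.8. The genotype difference of each hormone transcript is therefore also given without knockout replicates 2 and 10 and without knockout replicate 6. So are the ratios to insulin of Gcg, Sst, Ppy and Pyy and the number of correlated pairs. Neither way of leaving out libraries is given for the other ratios, for most single correlations or for the gene lists further below. The alternative without knockout replicates 2 and 10 was added after the data were seen. These libraries were not all left out together.

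Per kilobase of annotated exon, Ins2 was the highest member in both genotypes, with a median of 20452546 normalized reads per kilobase in knockout and 16729910 in wild-type libraries. In wild-type libraries Gcg followed at 1033374 per kilobase and Ins1 at 969212, and the ranges of these neighbours overlapped. Next came Iapp (295921 per kilobase), Ppy (276630), Sst (131485) and Pyy (108651), each overlapping its neighbour in that order. Ucn3 was last, at 2615 per kilobase, with no library near the lowest Pyy value of 68518. In knockout libraries the order of the medians per kilobase differed in 1 place, Ins1 (1210774) standing above Gcg (713496), with overlapping ranges. Together the 8 transcripts took 13.97 to 45.9% of all reads in knockout libraries (median 29.1%) and 20.7 to 43.9% in wild-type libraries (median 28.8%). The length given to Ins2 matters for its level: with its principal transcript of 455 bases in place of the 1312 bases of all annotated exons, a choice added after the data were seen, the wild-type median was 48240970 per kilobase.

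The RefSeq promoter table of GRCm38.p6 matched 7 of the 8 members. The stretches just before the transcription start are shown for Ins1, as the insulin gene in that table, and for the hormones whose transcripts varied together below (Gcg with Sst, Ppy with Pyy). Each is printed 5′ to 3′ on the strand of the gene, and capitals mark TAAT (a core bound by many homeodomain factors), TATAA (the TATA box core) and TGACGTCA (the palindromic cAMP response element), searched on both strands. For Sst only the 30 bases around its cAMP response element are shown.
Ins1 (chr19:52264047-52264296, plus strand): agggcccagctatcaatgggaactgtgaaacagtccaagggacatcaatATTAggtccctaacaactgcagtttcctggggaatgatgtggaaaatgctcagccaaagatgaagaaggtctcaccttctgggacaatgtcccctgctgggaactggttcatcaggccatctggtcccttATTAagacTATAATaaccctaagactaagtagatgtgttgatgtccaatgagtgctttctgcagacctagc
Gcg (chr2:62483654-62483903, minus strand): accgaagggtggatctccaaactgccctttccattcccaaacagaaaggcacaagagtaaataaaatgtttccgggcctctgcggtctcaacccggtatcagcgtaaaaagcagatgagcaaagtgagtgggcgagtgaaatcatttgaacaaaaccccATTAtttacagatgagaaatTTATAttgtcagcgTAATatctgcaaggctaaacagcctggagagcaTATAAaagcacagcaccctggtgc
Sst (chr16:23890867-23890896, minus strand): tggcTGACGTCAgagagagagtttaaaaag
Ppy (chr11:102101320-102101569, minus strand): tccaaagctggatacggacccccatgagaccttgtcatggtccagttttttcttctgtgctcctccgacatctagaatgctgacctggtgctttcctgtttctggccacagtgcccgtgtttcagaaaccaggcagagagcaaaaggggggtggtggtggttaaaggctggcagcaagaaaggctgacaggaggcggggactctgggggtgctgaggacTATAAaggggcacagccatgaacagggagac
Pyy (chr11:102107833-102108082, minus strand): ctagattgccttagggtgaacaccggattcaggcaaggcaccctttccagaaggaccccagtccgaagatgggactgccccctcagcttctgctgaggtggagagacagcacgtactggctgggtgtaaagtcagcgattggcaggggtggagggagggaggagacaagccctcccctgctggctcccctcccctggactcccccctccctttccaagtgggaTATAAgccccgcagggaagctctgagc

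In the 250 bases before the start, TGACGTCA was present in Sst alone among the 7 matched members, its first base lying 48 bases before the start, and in 1.55% of the 32851 promoters of the table. TAAT was found 3 times in Ins1, 5 times in Iapp, 2 times in Gcg, 2 times in Ucn3 and once in Sst, and it was absent from the windows of Ppy and Pyy; 54.9% of all promoters held it. A TATAA core was present in Ins1, Iapp, Gcg, Ppy and Pyy and in 22.8% of all promoters. In Ins1 it lay 63 to 59 bases before the start and overlapped the TAAT nearest the start. The match nearest the start began 27 bases before it in Iapp, 24 in Gcg, 31 in Ppy and 27 in Pyy. The E-box pattern CANNTG was found in each of these windows except that of Ppy and in 66.2% of all promoters. Ppy and Pyy, which encode related peptides, lie close together on chromosome 11. These matches describe letters in a window and are not measured binding sites.

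Whether the hormone transcripts differed by genotype was tested in a fit over 17482 genes. None of the 8 members passed an adjusted p of 0.05 (limma, Benjamini-Hochberg over all genes tested), in a comparison in which 0.280% of all genes passed, 0.120% with lower and 0.160% with higher values in knockout libraries. On whole reads 0 of 8 members passed in edgeR and in DESeq2, where 0.246% and 0.784% of all genes passed. At an unadjusted p under 0.05 stood 3 of the 8, namely Gcg, Sst and Pyy, all with lower values in knockout libraries, where 8.94% of all genes stood at that level, 4.63% with lower and 4.31% with higher values. In edgeR and in DESeq2 Gcg and Sst stood at that level, beside 8.82% and 9.80% of all genes. Under quantile normalization no member stood at that level, and over the 33 alternatives Gcg did so in 28, Sst in 32 and Pyy in 21. The median log2 difference over all genes was -0.002. Without knockout replicates 2 and 10 no member passed the adjusted p, Ins1, Ins2, Iapp and Ucn3 were at log2 differences of 0.20, 0.22, 0.26 and 0.12, and Ppy was at -0.47. Without the library labelled knockout replicate 6, Ins1, Ins2, Iapp, Ppy and Ucn3 were at 0.10, 0.15, 0.21, -0.54 and -0.03. In islet RNA measured in bulk, fewer cells of a type and less of a transcript per cell cannot be told apart.

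**Figure D1:**
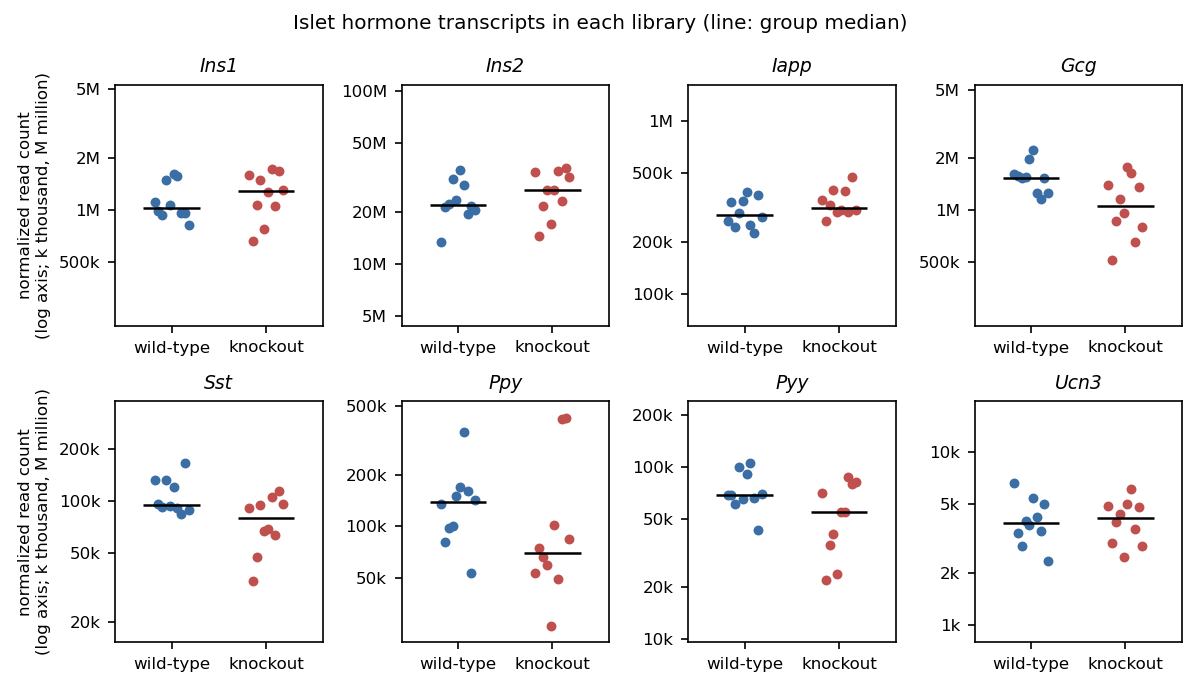
Normalized read count of each hormone transcript (vertical log axis) in 10 wild-type and 10 knockout libraries, 1 point per library, with a line at the group median. The groups overlap for every member, and Ppy shows 3 libraries above 300000, of which 2 are knockout and 1 is wild-type.

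Among the beta-cell hormones, Ins1 lay between 660362 and 1719450 normalized reads in knockout libraries (median 1285842) and between 818272 and 1616740 in wild-type libraries (median 1029303). The groups overlapped, with 2 knockout libraries below and 2 above every wild-type value. The log2 difference of Ins1, knockout minus wild-type, was 0.10 (SE 0.22, 95% interval from -0.35 to 0.55; limma adjusted p = 0.915), and it ran from 0.05 without knockout replicate 7 to 0.20 without knockout replicate 2. Ins2, the insulin gene that is also found in other mammals, lay between 14474216 and 36008571 in knockout libraries (median 26833740). In wild-type libraries Ins2 lay between 13377056 and 34956162 (median 21949641). Only wild-type library 11 was below all knockout libraries and only knockout replicate 9 was above all wild-type libraries. The log2 difference of Ins2 was 0.16 (SE 0.44, 95% interval from -0.75 to 1.07; limma adjusted p = 0.940). The model's trend of variance with expression widened that interval. Without the trend, an alternative added after the data were seen, the Ins2 SE was 0.19 and the interval ran from -0.23 to 0.55. The Ins2 difference was 0.07 without wild-type library 11 and 0.25 without knockout replicate 2.

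The share of Ins1 in all insulin reads had a median of 4.44% in knockout and 4.41% in wild-type libraries. The exception was wild-type library 11, where Ins1 made up 7.66% of insulin reads. Its Ins2 value was the lowest of all libraries, and its Ins1 value, 1109130, was above the wild-type median. Part of the Ins1 count could depend on how reads that match both genes were assigned, a step not given in the sources used here. Of the 50-base windows along the Ins1 transcript, 0.691% occurred unchanged in Ins2, and 11.3% did so when up to 2 mismatches were allowed. Along the principal transcript of Ins2, the far more abundant gene, 1.72% of windows occurred unchanged in Ins1. With up to 2 mismatches 28.1% did so.

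Iapp encodes amylin, which is stored and released with insulin. Its values ran from 264802 to 477416 in knockout libraries (median 317055) and from 224558 to 388636 in wild-type libraries (median 288227). Here 9 of 10 knockout libraries lay above the wild-type median and 3 lay above every wild-type library, and the ranges overlapped. The log2 difference of Iapp was 0.19 (SE 0.14, 95% interval from -0.10 to 0.49), and limma gave an adjusted p of 0.712. Ucn3 encodes urocortin 3, a peptide of mature beta cells that acts on delta cells. It ran from 2453 to 6137 in knockout libraries (median 4170) and from 2348 to 6651 in wild-type libraries (median 3866), with nearly identical ranges. The ratio of the Ucn3 means was 0.999, and the 95% interval of its log2 difference ran from -0.37 to 0.38 (limma adjusted p = 0.997).

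Gcg encodes proglucagon, the precursor of glucagon. In knockout libraries Gcg ran from 513752 to 1789539 (median 1065963), with the lowest value in replicate 2 and the highest in replicate 6. In wild-type libraries it ran from 1164084 to 2234466 (median 1543860). Thus 5 knockout libraries were below every wild-type library, 2 wild-type libraries were above every knockout library, and the others overlapped. Mean Gcg in knockout and wild-type libraries was 1118087 ± 428209 (SD, n = 10) against 1573443 ± 332359 (SD, n = 10), a ratio of 0.711. On the log2 scale the Gcg difference was -0.57 (SE 0.24, 95% interval from -1.06 to -0.08), with an unadjusted p of 0.0249 and an adjusted p of 0.480 by limma. Without the library labelled knockout replicate 6 it was -0.66 (limma adjusted p = 0.353), and Sst and Pyy were then at -0.53 and -0.54. Without knockout replicates 2 and 10, whose P2ry14 was in the wild-type range, it was -0.39 (limma unadjusted p = 0.101). In the 20 fits that left out a single library, the unadjusted p of Gcg stayed under 0.05 in 18.

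Sst encodes somatostatin. It ran from 34450 to 114372 in knockout libraries (median 79859) and from 84301 to 166733 in wild-type libraries (median 94801). Again 5 knockout libraries were below every wild-type library, and 4 wild-type libraries were above every knockout library. Mean Sst was 78144 ± 26040 (SD, n = 10) against 109604 ± 26949 (SD, n = 10), a ratio of 0.713. The log2 difference of Sst was -0.54 (SE 0.20, 95% interval from -0.95 to -0.13), with an unadjusted p of 0.0122 and an adjusted p of 0.406 by limma. It stayed at an unadjusted p under 0.05 with any of the 20 libraries left out and, at -0.45, without knockout replicates 2 and 10 (limma unadjusted p = 0.0202).

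Ppy encodes pancreatic polypeptide and was the most variable member, with a 15.97-fold range over the 20 libraries. Knockout libraries ran from 26676 to 425938 (median 70686) and wild-type libraries from 53865 to 353245 (median 138315). Knockout replicates 8 and 9 (421697 and 425938) and wild-type library 17 (353245) stood far above the other 17 libraries, which did not exceed 169837. The means were therefore close, at a ratio of 0.947, although 8 of 10 knockout libraries lay below the wild-type median. On the log2 scale the Ppy difference was -0.51 (SE 0.43, 95% interval from -1.41 to 0.38; limma adjusted p = 0.753). Its size rested on single libraries and on the model, being -0.32 without knockout replicate 5, -0.09 in edgeR and -0.08 in DESeq2 on whole reads. As a share of all reads, which needs no size factor, Ppy had a median of 0.0652% in knockout and 0.166% in wild-type libraries. On this measure 8 knockout libraries were below every wild-type library. The knockout maximum, 0.462% in replicate 9, was above the wild-type maximum of 0.287%, and the means were 0.136% and 0.159%. Knockout libraries below every wild-type library numbered 3 by normalized count, 4 per 1000 insulin reads and 6 as a share of reads outside the acinar list.

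Pyy encodes peptide YY, a relative of pancreatic polypeptide that is made in the islet as well as in the gut. It ran from 21971 to 86579 in knockout libraries (median 54480) and from 43235 to 104865 in wild-type libraries (median 68559). Below every wild-type library were 4 knockout libraries, and 3 wild-type libraries were above every knockout library. Mean Pyy was 54872 ± 24008 (SD, n = 10) against 73628 ± 18931 (SD, n = 10), a ratio of 0.745. The log2 difference of Pyy was -0.53 (SE 0.24, 95% interval from -1.03 to -0.02), with an unadjusted p of 0.0407 and an adjusted p of 0.537 by limma. Leaving out 1 library at a time kept the unadjusted p of Pyy under 0.05 in 13 of 20 fits, and edgeR and DESeq2 placed it above 0.05, at 0.0774 and 0.0669. Without knockout replicates 2 and 10 the log2 difference of Pyy was -0.47 (limma unadjusted p = 0.0502).

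**Figure D2:**
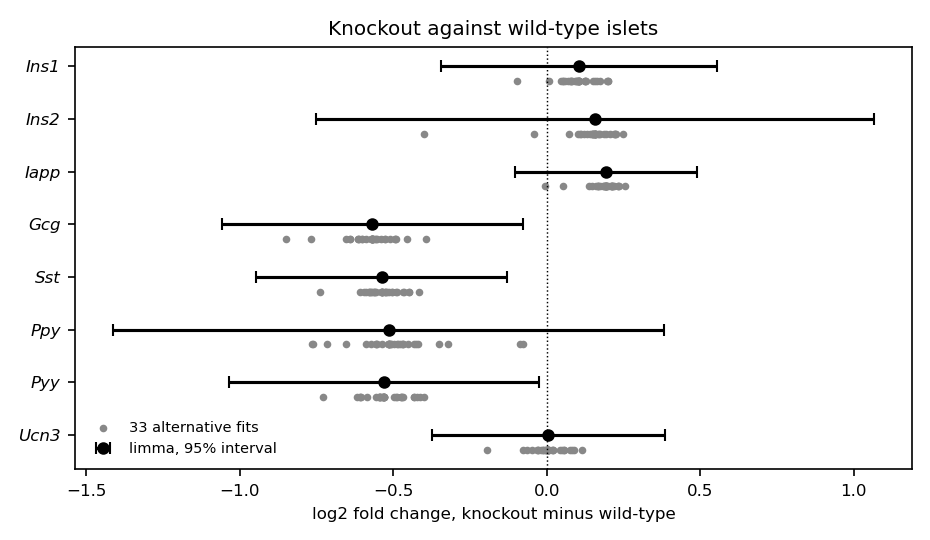
Log2 difference of each hormone transcript, knockout minus wild-type, as a black point with its 95% interval from limma, and grey points for the 33 alternative fits. The intervals of Gcg, Sst and Pyy lie below 0 before adjustment, and those of the other 5 members include 0.

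Each hormone was also set against the insulin transcripts of its own library. These ratios need no size factor and are given as descriptions, with no test. Per 1000 reads of Ins1 plus Ins2, Sst had 2.08 to 3.73 reads in knockout libraries (median 2.74) and 3.01 to 9.12 in wild-type libraries (median 4.08). All 10 knockout libraries were below the wild-type median, 7 were below every wild-type library, and 8 wild-type libraries were above every knockout library. Gcg had 24.1 to 63.6 reads per 1000 insulin reads in knockout libraries (median 38.8) and 41.3 to 112.5 in wild-type libraries (median 63.7), with 6 knockout libraries below every wild-type library. The highest knockout ratio of Gcg was in the library labelled replicate 6, and without it the knockout maximum was 53.7. Knockout medians without that library were 38.3 for Gcg, 2.87 for Sst, 2.55 for Ppy and 1.55 for Pyy. Leaving out knockout replicates 2 and 10 gave knockout medians of 40.4 for Gcg, 2.75 for Sst, 2.53 for Ppy and 1.74 for Pyy, with 4 of the 8 remaining knockout libraries below every wild-type library for Gcg and 5 for Sst. The median of Pyy was 1.74 reads per 1000 insulin reads in knockout libraries against 3.07 in wild-type, and that of Ppy was 2.75 against 5.39. Wild-type library 11, with its low Ins2, held the highest ratio for Gcg, Sst, Pyy, Iapp and Ucn3, and without it the wild-type medians of Gcg and Sst were 61.1 and 4.05.

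The beta-cell peptides had close medians relative to insulin. For Iapp the median was 12.5 reads per 1000 insulin reads in knockout libraries against 12.0 in wild-type, and for Ucn3 it was 0.1516 against 0.1497. The number of Gcg reads per Sst read was also close, at a median of 14.6 against 14.01.

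**Figure D3:**
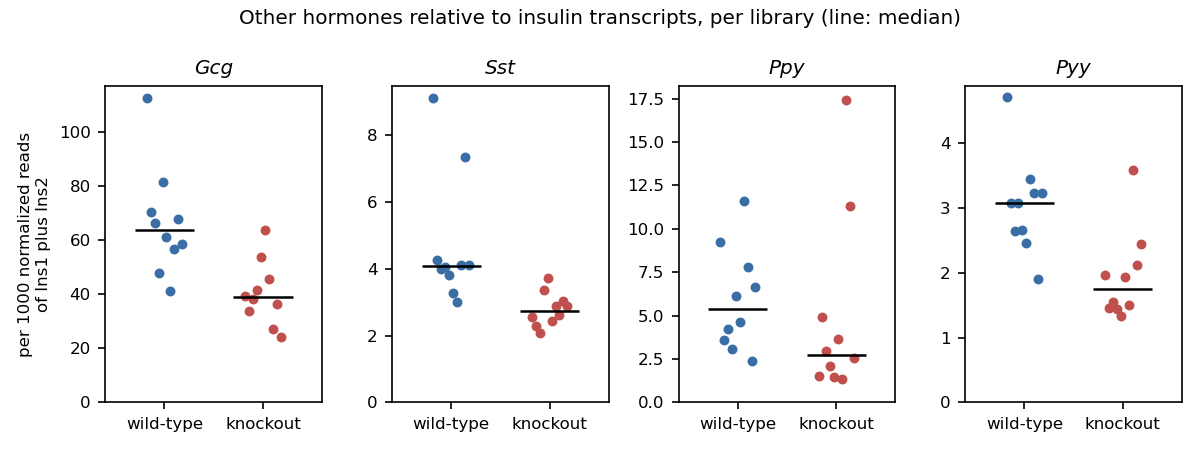
Reads of Gcg, Sst, Ppy and Pyy per 1000 reads of Ins1 plus Ins2 (vertical linear axis from 0), 1 point per library and a line at the group median. Knockout medians are below wild-type medians for Gcg (38.8 and 63.7), Sst (2.74 and 4.08), Ppy (2.75 and 5.39) and Pyy (1.74 and 3.07), and the ranges overlap in each panel.

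The share of acinar RNA was compared with each member over the 20 libraries. Iapp had the strongest relation, with Pearson's r = -0.47 (permutation p = 0.0385, adjusted over the 8 members 0.308) and Spearman's rho = -0.52 (permutation p = 0.0212, adjusted 0.169). Without the 2 libraries farthest from the median acinar share, r for Iapp was -0.64. The other members had r between -0.26 and 0.29, and no member passed after adjustment. With the acinar share as a term in the limma fit, the log2 differences of Gcg, Sst and Pyy were -0.55, -0.53 and -0.55, close to those without it. Under that fit 0 of 8 members passed the adjusted p, beside 0.372% of all genes, and the same 3 stood at an unadjusted p under 0.05, beside 9.72% of all genes.

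Covariation of the members over the 20 libraries was measured on log2 values for all 28 pairs. Positive correlations were found in 27 pairs, with a median r of 0.45, and 9 pairs passed an adjusted permutation p of 0.05. The members share libraries and size factors, so any error in a size factor moves all of them together. A large part of the count also rested on knockout replicate 2, the lowest knockout library for Ins1, Ins2, Iapp, Gcg, Sst and Pyy, without which 3 pairs passed. It was 5 pairs without knockout replicate 5, 5 without knockout replicate 9 and 4 without wild-type library 16. Without knockout replicates 2 and 10 it was 4 pairs, namely Ins1 with Ins2, Ins1 with Ucn3, Gcg with Sst and Ppy with Pyy.

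**Figure D4:**
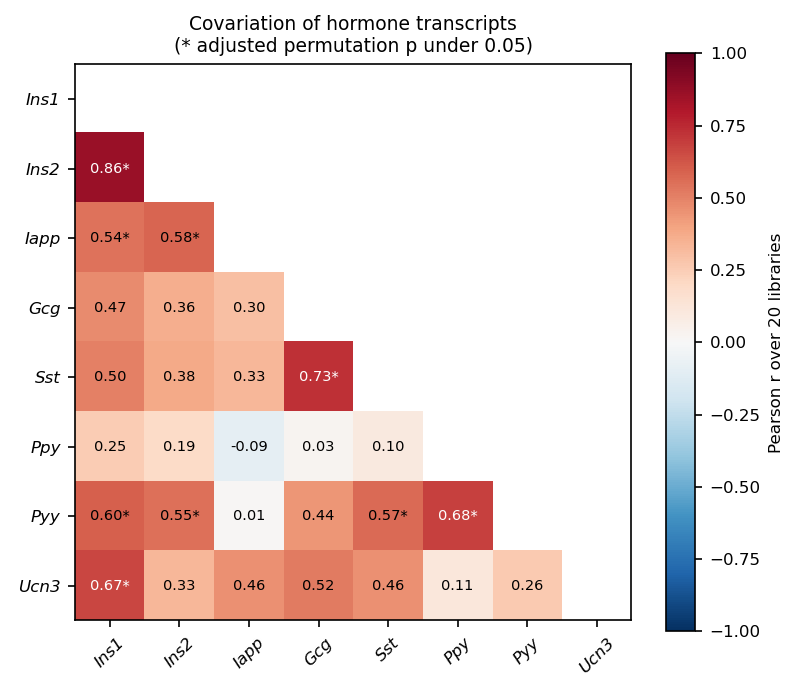
Pearson's r for each pair of hormone transcripts over 20 libraries, on log2 values, with an asterisk where the adjusted permutation p is under 0.05. The strongest pairs are Ins1 with Ins2 (0.86), Gcg with Sst (0.73) and Ppy with Pyy (0.68), and Ppy is near 0 with Gcg, Sst and Iapp.

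Ins1 and Ins2 were the closest pair, with r = 0.86 (permutation p = 1.00e-05, the smallest the resamples can give, adjusted 2.80e-04) and rho = 0.87 (adjusted permutation p = 2.80e-04). The pair kept r = 0.81 without the 2 libraries farthest from the median of Ins1. It was tighter within knockout libraries (r = 0.97) than within wild-type libraries (r = 0.69), a difference that was not tested, and over all libraries but wild-type library 11 it was 0.96. Ins1 was also correlated with Ucn3, at r = 0.67 (permutation p = 0.00153, adjusted 0.0107) and rho = 0.68, and r was 0.60 without the 2 farthest libraries. For Ins2 and Ucn3 r was 0.33 (permutation p = 0.161, adjusted 0.237), and it was 0.66 without the 2 libraries farthest from the median of Ins2. Iapp followed both insulin genes less closely, with r = 0.58 for Ins2 (permutation p = 0.00783, adjusted 0.0365) and r = 0.54 for Ins1 (permutation p = 0.0152, adjusted 0.0473). The Ins1 and Iapp pair lost its call in 14 of the 28 alternatives, each of which left out libraries, and the Ins2 and Iapp pair in 5.

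Gcg and Sst, hormones of different cell types, had r = 0.73 (permutation p = 4.60e-04, adjusted 0.00644) and rho = 0.62 (adjusted permutation p = 0.0279). Without the 2 libraries farthest from the median of Gcg, r was 0.51 (permutation p = 0.0313). Within knockout libraries it was 0.69 and within wild-type libraries 0.38. Without knockout replicate 2, which was the lowest library for both hormones, it was 0.58 and no longer passed after adjustment. Ppy and Pyy, the neighbours on chromosome 11 whose promoters are printed above, had r = 0.68 (permutation p = 0.00137, adjusted 0.0107) and rho = 0.64 (adjusted permutation p = 0.0265). This pair kept r = 0.63 within knockout and 0.70 within wild-type libraries. Without the 3 libraries of high Ppy r was 0.63 (adjusted permutation p = 0.0288), and the pair passed in each of the 28 alternatives tried. No 50-base window of the Ppy transcript occurred in Pyy with up to 2 mismatches.

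Pyy was also correlated with Ins1 (r = 0.60, permutation p = 0.00463, adjusted 0.0259; rho = 0.51, adjusted 0.0617), with Ins2 (r = 0.55, permutation p = 0.0112, adjusted 0.0391; rho = 0.52, adjusted 0.0617) and with Sst. Of 28 alternatives, 11 ended the call of Pyy with Ins2, 5 that of Pyy with Ins1 and 9 that of Pyy with Sst. The relation with Sst, r = 0.57 (permutation p = 0.0101, adjusted 0.0391) and rho = 0.36 (adjusted permutation p = 0.198), rested on the 2 libraries farthest from the median of Sst. Without them r was 0.20 (permutation p = 0.435), and r was 0.67 within knockout libraries and -0.25 within wild-type libraries. Without the 3 libraries of high Ppy it was 0.67 (adjusted permutation p = 0.0274). Of the 19 pairs that did not pass, Gcg with Ucn3 was nearest to the threshold (r = 0.52, adjusted permutation p = 0.0506), followed by Ins1 with Sst (r = 0.50, adjusted permutation p = 0.0587). Others among the 19 were Gcg with Pyy (r = 0.44, adjusted permutation p = 0.0964), Ins2 with Gcg (r = 0.36, adjusted permutation p = 0.193) and Sst with Ppy (r = 0.10, adjusted permutation p = 0.750). With the library labelled knockout replicate 6 left out, 8 pairs passed and Gcg with Sst was at 0.79.

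**Figure D5:**
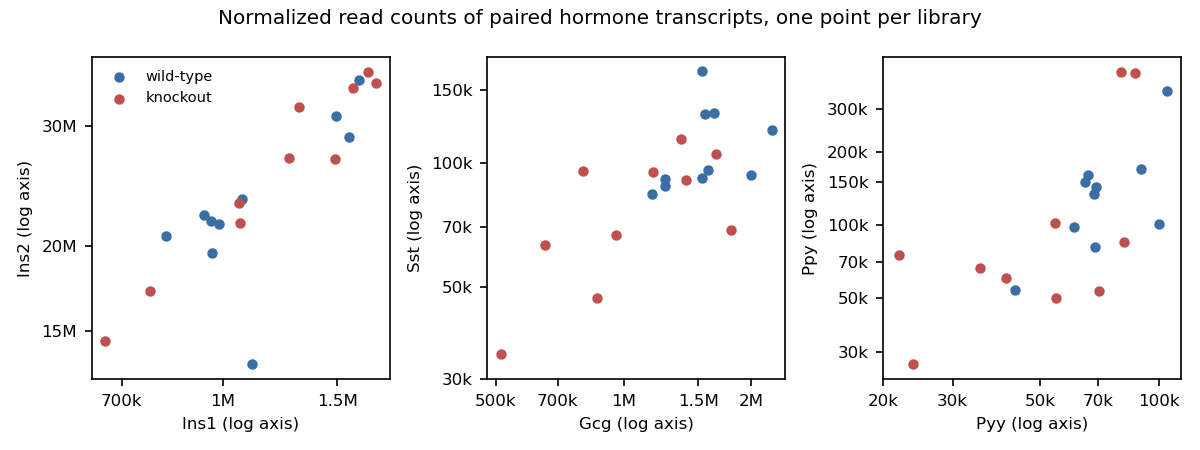
Normalized read counts of Ins1 against Ins2, Gcg against Sst and Ppy against Pyy (all axes log), 1 point per library, coloured by genotype. Wild-type library 11 lies below the line of the other insulin values (Ins2 at 13377056), and the 3 libraries of high Ppy lie at the top of the third panel.

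The genes whose values most resembled each member were taken from 12354 genes with a mean of at least 100, by Pearson's r over the 20 libraries, as a description. For Ins1 they were Pebp1 (r = 0.92), Tmsb15l (0.87) and Tmsb15b1 (0.87), of which the last pair are similar copies whose reads may be shared. For Ins2 they were Atraid (0.89), Uqcc2 (0.88) and Ndufa1 (0.88). Genes with r of at least 0.7 made up 2.59% of all genes for Ins2 and 0.0405% for Ppy, the largest and smallest shares among the members. Gcg was most like Gpx3 (0.90), which encodes a secreted glutathione peroxidase, Rbp4 (0.86) and Nespas (0.84), an antisense transcript whose reads cannot be told apart by strand here. These r pool both genotypes, so a difference between genotypes enters them. For Gpx3, Rbp4 and Nespas with Gcg, r was 0.90, 0.92 and 0.79 within knockout libraries. Within wild-type libraries it was 0.76, 0.42 and 0.70. Sst was most like Rbp4 (0.89), the retinol carrier that is on the list of delta- and PP-cell markers, Trpm5 (0.85) and Pea15a (0.82). In that order r with Sst was 0.90, 0.81 and 0.87 within knockout and 0.68, 0.79 and 0.54 within wild-type libraries. Genes near Ppy included Tspan8 (0.77) and Ghrl (0.73), the ghrelin gene, and Pyy was nearest to Gm2a (0.85), Evl (0.82) and Zfp385a (0.82). For Gm2a, Evl and Zfp385a, r with Pyy was 0.86, 0.84 and 0.90 within knockout libraries. Within wild-type libraries it was 0.73, 0.52 and 0.36. Iapp was nearest to Rnf130 (0.86), Rcn2 (0.82) and Resp18 (0.80), and Ucn3 to Nucb1 (0.84), Chgb (0.83) and Ppp1r1a (0.82). The 10 alpha-cell markers tested correlated positively with Gcg in every case, with a median r of 0.50, led by Irx1 (0.81). Gcg was also positively correlated with 11 of 12 beta-cell markers (median r 0.38, led by Trpm5 at 0.73) and with 9 of 11 delta- and PP-cell markers (median r 0.28, led by Rbp4 at 0.86). Ucn3 was likewise positive with all 10 alpha-cell markers, with a median r of 0.25. The 12 beta-cell markers had a median r of -0.11 with Ins1 and -0.23 with Ins2.

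Of 13 other islet and gut peptide genes tested, 9 had lower and 4 had higher values in knockout libraries, with a median log2 difference of -0.42, and none passed the limma adjusted p. The appetite peptide Cartpt was at 49.3 ± 45.3 (SD, n = 10) in knockout libraries against 104.6 ± 37.4 (SD, n = 10), a log2 difference of -1.47 (limma adjusted p = 0.186). Ghrl had a log2 difference of -1.18 (limma adjusted p = 0.347). Of 15 hormone receptor genes, 11 were lower and none passed (median -0.11), the somatostatin receptors Sstr1 and Sstr2 having the smallest p, with log2 differences of -1.50 and -0.71. Of 14 prohormone processing and granule genes, 10 were lower and none passed (median -0.05), with Pcsk6, a proprotein convertase, at 0.23 and Chgb, the granule protein chromogranin B, at -0.17.

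Transcription factors of hormone genes were lower in 19 of 21 cases, with a median log2 difference of -0.21, against 50.4% lower and a median of -0.002 over all genes. None of them passed. Irx1, an alpha-cell factor, was among those with the smallest p (log2 difference -0.65, limma adjusted p = 0.338). Beta-cell markers were lower in 11 of 12 cases with none past the test (median -0.28), led by Mafa (-0.55) and Trpm5 (-0.54), a cation channel. Their summed level ran from 81699 to 148926 in knockout and from 103639 to 213754 in wild-type libraries. Alpha-cell markers were lower in 8 of 10 cases with none past the test (median -0.40), and their summed level ran from 39734 to 87063 and from 50584 to 75531. Delta- and PP-cell markers were lower in 9 of 11 cases (median -0.51), and Ptprz1, a receptor tyrosine phosphatase gene, fell by 1.06 on the log2 scale (SE 0.22, limma adjusted p = 0.0366). Ptprz1 was at 155.8 ± 52.1 (SD, n = 10) in knockout libraries against 322.5 ± 110.0 (SD, n = 10). These Ptprz1 values include knockout replicates 2, 6 and 10, and its result without them is not given here. The summed level of this list ran from 5949 to 13983 in knockout and from 11183 to 20256 in wild-type libraries, with Pdlim4, Sstr1 and Nts at 0 in some libraries. Several genes stand on more than 1 of these lists.

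Markers of cells outside the endocrine islet were mostly higher in knockout libraries, and none passed the test. That held for 25 of 30 acinar genes (median log2 difference 0.13, led by Reg1 at 0.66 and Amy1 at 0.55). It also held for 7 of 8 duct genes (median 0.15). Among duct genes Cftr was at 1.22 (SE 0.82, limma adjusted p = 0.683), with a value of 0 in some library. Macrophage genes were higher in 9 of 11 cases (median 0.43), led by Adgre1 (0.95, limma adjusted p = 0.318) and Aif1 (1.36, limma adjusted p = 0.445). Their summed level ran from 5300 to 22616 in knockout and from 5056 to 20708 in wild-type libraries, with Aif1 at 0 in some library. The summed acinar level ran from 4332962 to 51350918 in knockout and from 3578675 to 38839458 in wild-type libraries. The median acinar share of reads was 24.2% in knockout and 22.4% in wild-type libraries. Genes of a cell type can vary together with its share of a library, so the counts of higher genes are not counts of independent cases. Of the remaining lists, 3 of 8 endothelial, 6 of 8 mesenchymal and 5 of 6 Schwann-cell genes were higher, with medians of -0.02, 0.15 and 0.15. The smallest p-values were those of Emcn and Tie1 among endothelial genes and of Dcn and Pdgfrb among mesenchymal genes. The part of duct, macrophage and mesenchymal RNA in the hormone differences was not tested.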

How the data were processed

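Islet RNA was sequenced from 10 P2Y14-knockout and 10 wild-type samples, with a kit that does not mark strand, per the labels' protocols. The authors deposited DESeq-normalized read counts, as the table is named, and these values were treated here as a signal. Per the submitters' processing notes, DESeq 1.16.0, Cufflinks 1.3.0, Bowtie 0.9.9, TopHat 1.3.3 and FastQC were used with the build mm9, in roles the notes do not state. How reads were counted, how multiply matching reads were treated, and with which annotation, was not given in the sources used here. Every column was a whole multiple of 1 step, and dividing by it made 100.0% of non-zero values under 1000 reads whole to within 0.05 reads, so depth could be recovered. Deeper libraries carry less counting error, and at 1528 reads or more per member the spread between libraries, not counting, sets the error. Names, exon lengths and neighbours came from GENCODE M21 on GRCm38, which named 23950 of 26211 identifiers, and promoters from RefSeq on GRCm38.p6, not from the build of the reads.

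The test was limma 3.58.1 in R 4.3.3 (lmFit, eBayes with trend) on log2(value + 1), for genes with a mean of at least 10, genotype being the only term, with Benjamini-Hochberg adjustment over all genes and a threshold of 0.05. Differences are on that log2(value + 1) scale. Covariation used two-sided permutation tests with 100000 resamples in Python 3.11.15 with scipy 1.17.1, adjusted over 28 pairs. Alternatives were other pseudocounts (0.5 and 10), filters, scalings, an acinar term, library weights, edgeR 4.0.16 and DESeq2 1.42.0 on whole reads, and each library left out. The limma step was also run, after the fits above, on simulated data with known changes. Gene means and spreads were taken from these data. Noise was drawn independently for each gene, so variation shared by the genes of a library was not simulated. The limma step recovered 20.0%, 63.3%, 80.0% and 66.7% of 1.5-, 2-, 3- and 4-fold changes, with 4 false calls among 117. The members, lists and tests were chosen with earlier results of these data known. Named were all members, member pairs past the threshold or listed beforehand, the 3 genes most like each member, and from each list the genes past the threshold or else the 2 with the smallest p. A few genes that this rule selects are not reported here. Myo7a, Trim12a and Thbs3 were named outside this rule, after their values were seen.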

Additional observations from a re-analysis of the deposited data

Results flagged for a closer look

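In 32 groups of 10 values, 4 held a value whose gap to its neighbour was larger than Dixon's 95% limit allows. The groups were of member levels and of member ratios to insulin, on unlogged values. For a single group chance gives about 1 in 20. The groups share values and insulin denominators, so 4 of 32 does not measure an excess over that rate. Ppy in wild-type library 17 was 353245, against 169837 in the next wild-type library, and the gap was 0.613 of the group's range. Ins2 over Ins1 in wild-type library 11 was 12.1, against 18.4 in the nearest library. The same library had 0.459 Ucn3 reads per 1000 insulin reads, against 0.221 in the next. Pyy in knockout replicate 8 was 3.58 per 1000 insulin reads, against 2.44 in the next knockout library.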

How the results depend on the processing

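Over 33 alternatives no member passed the adjusted p, and Gcg (log2 difference from -0.85 to -0.39), Sst (-0.74 to -0.42), Pyy (-0.73 to -0.40) and Ppy (-0.77 to -0.08) were lower in knockout libraries in each. The lowest adjusted p over these alternatives was 0.166, for Gcg. Scaling each library to genes outside the acinar list and the members moved the median of all genes to -0.20 and made Ins1 -0.10, Ins2 -0.043, Iapp -0.0072 and Ucn3 -0.20. Relative to that median, Ins1 was 0.10, Ins2 0.16, Iapp 0.19 and Ucn3 0.003, and Gcg and Sst were -0.57 and -0.54. Quantile normalization made Ins2 -0.40 (limma adjusted p = 0.745), and the cause was not tested. Ucn3, near 0 throughout, was -0.0064 in edgeR and -0.0022 in DESeq2, and leaving out single libraries gave it -0.0785 to 0.0884. Its negative values were -0.03 without knockout replicate 1, -0.01 without 4, -0.03 without 6, -0.07 without 7 and -0.03 without 9, and -0.02, -0.05, -0.003, -0.01 and -0.0785 without wild-type libraries 12, 13, 15, 18 and 20. The 9 correlated pairs became 16 on genotype-centred values, 14 after adjustment for the acinar share and 21 under the scaling outside the acinar list, and 3 to 13 when single libraries were left out, the most without wild-type library 11, and 4 without knockout replicates 2 and 10. Sst with Ppy was -0.039 on genotype-centred values. Among all genes 49 passed in limma, 43 in edgeR and 137 in DESeq2, 163 with library weights, 29 with a mean of at least 100, 27 under the scaling outside the acinar list, 27 without knockout replicate 4, 32 without 8 and 30 without wild-type library 19. At an unadjusted p under 0.05, edgeR and DESeq2 each gave 2 members, Gcg and Sst. Quantile normalization gave 0 (unadjusted p 0.0582 for Gcg, 0.0788 for Sst and 0.0915 for Pyy by limma), and without a filter Gcg was at 0.0949. No paired analysis was possible because the wild-type columns carry the numbers 11 to 20 and not the replicate numbers of the labels.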
